A study of Mus musculus with 12 samples.

Results

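The genes described here are 10 that mark simple epithelium and hormone-responsive mammary cells: the keratins Krt7, Krt8, Krt18 and Krt19, the adhesion genes Cdh1, Epcam and Cldn3, and the hormone receptors Prlr, Pgr and Esr1. They were taken by name from the 24499 gene symbols of the count table, and all 10 were found there. They were put together with earlier results of these data known, in which library 4 of the APOE-KO group held epithelial transcripts that most other APOE-KO libraries lacked, so their genotype differences are given as a description and not as a test. The data come from lymph nodes draining E0771-cOC tumours, E0771 being a mouse mammary carcinoma line, in APOE-KO mice and in wildtype C57BL6 mice. Both groups received the tumour cells, and their nodes were taken on day 9 after injection. The nodes were minced, digested, and enriched on CD11c beads, which bind dendritic cells and some macrophages. There were 6 APOE-KO and 6 wildtype libraries, sequenced from the 3' end. The labels give neither the age of the mice nor how the Apoe allele was made, and nothing in them says that libraries come from separate animals, so all spreads and p-values describe these libraries.

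Keratins are filament proteins that assemble as pairs of a type I and a type II chain. Krt8 with Krt18 is the usual pair of simple epithelia, and in the mammary gland Krt7, Krt8, Krt18 and Krt19 belong to the luminal layer of the ducts, while Krt5 and Krt14 belong to the basal layer. E-cadherin (Cdh1), EpCAM and claudin-3 hold epithelial cells together, but Cdh1 and Epcam are also made by Langerhans cells, which migrate from skin to lymph nodes. In the gland, a subset of luminal cells carries the oestrogen receptor (Esr1), the progesterone receptor (Pgr) and the prolactin receptor (Prlr). The inguinal node of the mouse lies within the mammary fat pad.

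Library totals ran from 2381477 to 4898360 counts, and the share of the 45S ribosomal RNA gene Rn45s from 2.71% in wildtype library 3 to 32.2% in wildtype library 1. Apoe had 13 to 30 reads in the APOE-KO libraries and 838 to 2919 reads in the wildtype libraries, so no library went against its genotype label. The dendritic cell genes that the label of the tissue calls for were abundant, with H2-Ab1, a class II chain, at 3028 ± 264 CPM (CPM being reads scaled to a common library size with TMM factors) in APOE-KO and 3058 ± 354 CPM in wildtype (SD, n = 6 each). The epithelial genes had far fewer reads. 1 read stood for 0.211 to 0.354 CPM in APOE-KO libraries and for 0.174 to 0.529 CPM in wildtype libraries, and 3 reads, taken as the limit that a count of 0 allows, for 0.633 to 1.06 CPM in APOE-KO and 0.522 to 1.59 CPM in wildtype. In bulk libraries fewer cells of a type and less RNA per cell cannot be told apart.

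The keratins were present in all wildtype libraries and spread widely among the APOE-KO libraries, from 212 reads in library 4 to none in library 2. Summed over the 4 genes they held 54, 0, 15, 212, 8 and 1 reads in APOE-KO libraries 1 to 6, and 59, 147, 316, 242, 181 and 103 reads in wildtype libraries 1 to 6. As levels these sums were 12.3, 0, 5.32, 56.7, 1.98 and 0.211 CPM in APOE-KO, against 31.2, 49.7, 55.0, 54.8, 50.1 and 29.1 CPM in wildtype. APOE-KO library 4 had the highest keratin sum of the 12 libraries, and the other 5 APOE-KO libraries lay below every wildtype library.

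Krt18, the type I partner of Krt8 and the keratin with most reads, stood at 5.24, 0, 2.13, 26.2, 1.98 and 0 CPM in APOE-KO libraries 1 to 6 and at 15.3, 23.7, 16.0, 35.3, 23.0 and 16.4 CPM in wildtype libraries 1 to 6. Its groups overlapped through APOE-KO library 4 alone. Krt8, the type II partner, stood at 1.596, 0, 0, 7.76, 0 and 0 CPM in APOE-KO and at 4.23, 9.12, 11.1, 3.17, 6.37 and 4.23 CPM in wildtype, and again 5 of 6 APOE-KO libraries lay below the lowest wildtype library. Krt19, a type I keratin that lacks most of the usual tail, had 2.96, 0, 3.19, 18.2, 0 and 0 CPM in APOE-KO and 5.29, 7.10, 21.4, 9.06, 19.4 and 5.64 CPM in wildtype. Krt7, a type II keratin of ducts, had 2.51, 0, 0, 4.55, 0 and 0.211 CPM in APOE-KO and 6.35, 9.80, 6.44, 7.25, 1.38 and 2.82 CPM in wildtype. For Krt7 the groups overlapped also through APOE-KO library 1, since wildtype library 5 held 5 reads. In group means, Krt18 had 5.93 ± 10.1 CPM in APOE-KO and 21.6 ± 7.65 CPM in wildtype (SD, n = 6 each). Without library 4 the APOE-KO mean of Krt18 was 1.87 ± 2.15 CPM (SD, n = 5).

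**Figure D1:**
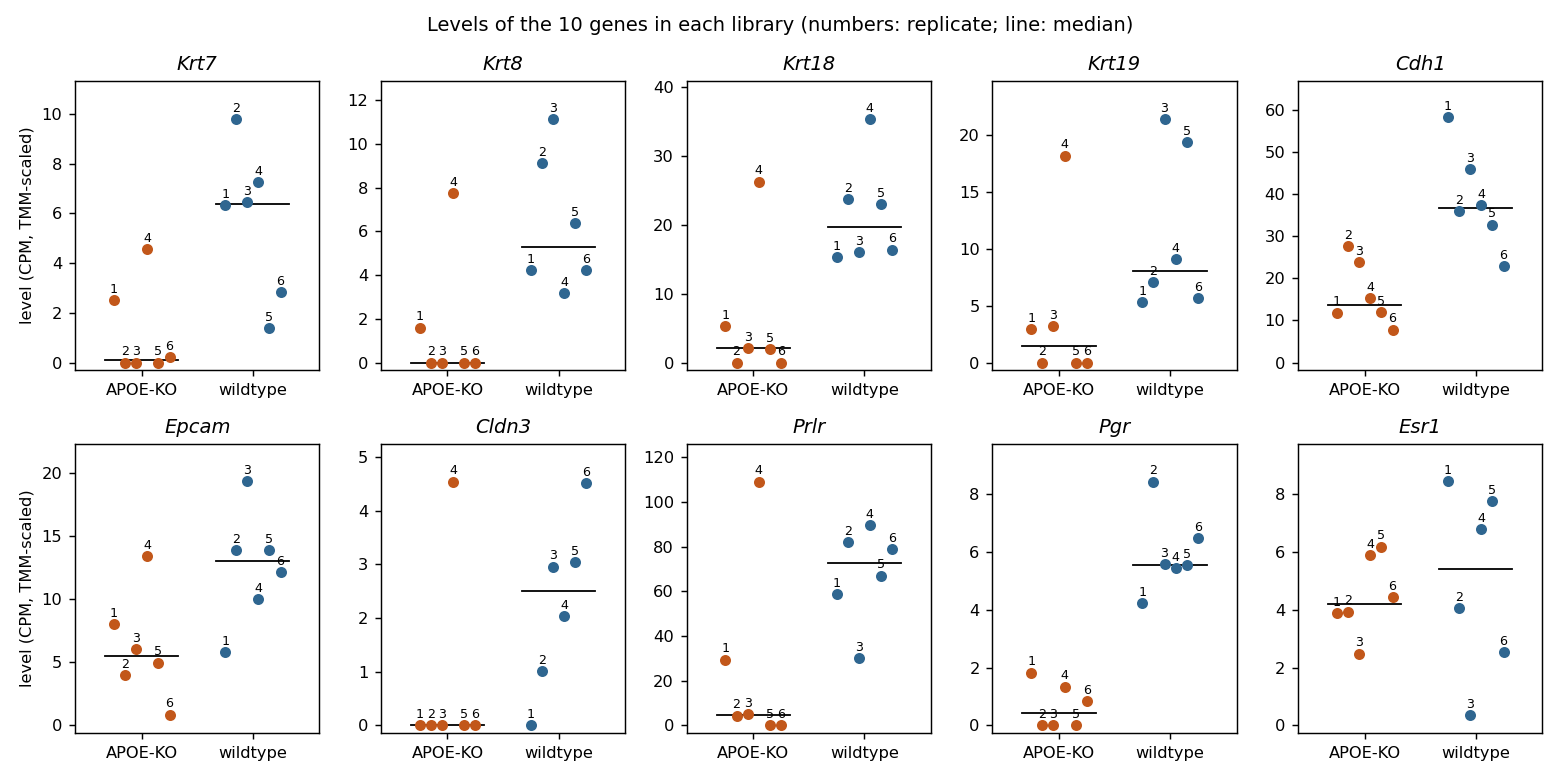
Levels of the 10 genes in each library, as CPM on TMM-scaled library sizes on linear axes that differ between panels. Each point is 1 library, numbered by its replicate, APOE-KO on the left and wildtype on the right, and the line is the group median. APOE-KO library 4 sits within the wildtype range for the 4 keratins and Epcam and above it for Prlr, at 109 CPM, but below all 6 wildtype libraries for Pgr, at 1.34 CPM, and for Cdh1, at 15.3 CPM.

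Of the adhesion genes, Cdh1 did not share the keratin pattern. It was detected in every library, at 11.9, 27.6, 23.7, 15.3, 11.9 and 7.81 CPM in APOE-KO libraries 1 to 6 and at 58.2, 35.8, 45.8, 37.4, 32.7 and 22.9 CPM in wildtype libraries 1 to 6. APOE-KO libraries 2 and 3, which had 0 and 15 keratin reads, held the highest Cdh1 levels of their group, and they alone reached the wildtype range. Epcam, too, was detected throughout, with 7.98, 3.94, 6.02, 13.4, 4.95 and 0.844 CPM in APOE-KO and 5.82, 13.9, 19.3, 9.97, 13.8 and 12.1 CPM in wildtype. Its lowest wildtype library was library 1, and 3 APOE-KO libraries lay below it. Cldn3, a tight junction protein, was found in 1 APOE-KO library, number 4, with 17 reads or 4.55 CPM, and in 5 wildtype libraries with 3 to 17 reads, up to 4.52 CPM. Wildtype library 1 had no Cldn3 read.

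Prlr, the receptor for prolactin and the gene of the 10 with most reads, was high and low in nearly the same APOE-KO libraries as the keratins. Among the wildtype libraries it was not: library 3, with the most keratin reads, had the lowest Prlr level. Prlr stood at 29.4, 4.27, 4.96, 109, 0 and 0 CPM in APOE-KO libraries 1 to 6 and at 58.7, 82.1, 30.0, 89.5, 67.0 and 78.7 CPM in wildtype libraries 1 to 6. APOE-KO library 4 was the highest of all 12 libraries, with 408 reads, and the other 5 APOE-KO libraries were below the lowest wildtype library, number 3. Pgr, the receptor for progesterone, was the member whose groups did not overlap: it had 1.82, 0, 0, 1.34, 0 and 0.844 CPM in APOE-KO and 4.23, 8.45, 5.57, 5.44, 5.54 and 6.49 CPM in wildtype, from 17 and 132 reads in all. Of the 10714 genes tested, 0.541% had groups that did not overlap with APOE-KO lower, against 1 of the 9 members tested. Esr1, the oestrogen receptor alpha, had groups that overlapped over most of their range, at 3.88, 3.94, 2.48, 5.89, 6.19 and 4.43 CPM in APOE-KO and 8.46, 4.06, 0.348, 6.80, 7.76 and 2.54 CPM in wildtype. Its lowest level was in wildtype library 3, with 2 reads, the wildtype library with most keratin reads.

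The start regions of Krt8, Krt18, Prlr and Pgr are shown because Krt8 and Krt18 were within the wildtype range in APOE-KO library 4 and Prlr above it, while Pgr was below it. Krt8 and Krt18 are neighbours on chromosome 15, 23697 bases apart. Each sequence runs 5' to 3' along the gene's own strand, from 250 bases before to 50 bases after the start site in RefSeq (GRCm38.p6), and of the 10 members 8 had such an entry. Prlr has 3 annotated starts there, of which the first is shown; the data do not tell which start was used, since reads came from 3' ends. Capitals mark matches, on either strand, to any of 8 motifs. The TATA box was searched as TATAAA. The CCAAT box was searched by the letters of its name, and the GC box as GGGCGG. The STAT site was searched as TTCNNNGAA and the grainyhead site as AACCGGTT. The AP-1 site was searched as TGANTCA, and the remaining motifs were the palindromic oestrogen and progesterone response elements.
Krt8, chr15:102004293-102004592, minus strand: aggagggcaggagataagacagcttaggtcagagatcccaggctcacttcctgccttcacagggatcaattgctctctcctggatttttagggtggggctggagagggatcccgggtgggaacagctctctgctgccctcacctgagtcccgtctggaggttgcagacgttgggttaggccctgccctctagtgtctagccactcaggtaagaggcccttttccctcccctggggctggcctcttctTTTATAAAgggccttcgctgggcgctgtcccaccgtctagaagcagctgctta
Krt18, chr15:102027966-102028265, plus strand: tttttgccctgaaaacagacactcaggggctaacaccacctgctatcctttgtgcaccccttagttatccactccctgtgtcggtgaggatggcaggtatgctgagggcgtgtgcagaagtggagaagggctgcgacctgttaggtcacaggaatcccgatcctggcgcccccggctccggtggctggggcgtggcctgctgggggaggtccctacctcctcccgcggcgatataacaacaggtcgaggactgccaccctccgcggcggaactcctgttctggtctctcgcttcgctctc
Prlr, chr15:10176988-10177287, plus strand: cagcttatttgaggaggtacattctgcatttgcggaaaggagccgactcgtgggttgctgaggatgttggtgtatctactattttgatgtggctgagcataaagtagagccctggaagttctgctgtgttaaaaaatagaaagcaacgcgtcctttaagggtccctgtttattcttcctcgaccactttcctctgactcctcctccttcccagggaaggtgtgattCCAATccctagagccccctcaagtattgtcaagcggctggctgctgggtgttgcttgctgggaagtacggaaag
Pgr, chr9:8899583-8899882, plus strand: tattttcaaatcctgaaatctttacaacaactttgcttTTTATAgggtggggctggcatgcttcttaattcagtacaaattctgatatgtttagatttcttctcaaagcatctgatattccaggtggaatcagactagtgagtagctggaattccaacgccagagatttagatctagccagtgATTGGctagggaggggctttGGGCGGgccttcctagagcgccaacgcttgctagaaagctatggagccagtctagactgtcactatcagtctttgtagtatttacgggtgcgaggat

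In these windows Krt8 held TATAAA on both strands, as 2 overlapping matches that begin 3 and 1 bases before the start, and Krt18 held none of the 8 motifs. The Prlr window held 1 match to the CCAAT box letters, 24 bases before the start. The Pgr window matched the TATA box, CCAAT box and GC box letters 212, 67 and 47 bases before its start. Whether any of these letters work as such elements was not tested. Among all 32851 RefSeq start regions of 300 bases, 13.6% held a TATA box, 37.4% a CCAAT box and 35.7% a GC box. The oestrogen and progesterone response elements were in 0.0213% and 0.0578% of them, the STAT, grainyhead and AP-1 letters in 8.3%, 0.146% and 7.81%, and none of the 4 windows printed held any of these 5. No match says only that those letters are not in this window.

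In a fit across all genes with edgeR's quasi-likelihood test, 9 of the 10 members passed the filter on low counts (Cldn3 did not), and all 9 had a negative log2 fold change of APOE-KO over wildtype. The filter keeps a gene with enough reads in about 6 libraries, so a member present in wildtype passed through that group. Pgr had the largest change, a log2 fold change of -3.01 ± 0.70 (SE), followed by Krt7 at -2.16 ± 0.81 and Krt8 at -2.00 ± 0.85. Krt18 came to -1.86 ± 0.66, Krt19 to -1.50 ± 0.78, and Prlr to -1.45 ± 0.71. Cdh1 and Epcam had smaller values of -1.26 ± 0.28 and -1.03 ± 0.44, but that of Cdh1 carried the smallest SE. Esr1 was at -0.12 ± 0.56, a size below its error, and its sign was not stable: it was 0.73 in limma-voom. Past an adjusted p of 0.05, over all genes, were 2 of the 9 as lower, Cdh1 and Pgr, beside 0.411% of all 10714 genes lower. Because the members were chosen on this contrast, nothing is read from that count. With no filter on low counts 3 of the 10 were past the threshold as lower, Krt18, Cdh1 and Pgr, beside 0.402% of all genes with a read. The Pgr call ended without APOE-KO library 3 or 6 or wildtype library 2, 4, 5 or 6 (adjusted p up to 0.0691 in edgeR's quasi-likelihood test), while Cdh1 stayed below 0.05 in each fit without 1 library (up to 0.0499).

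Library 4 of the APOE-KO group set the size of most of these differences. Without it the log2 fold change was -4.06 ± 0.89 (SE) for Krt8, -3.48 ± 0.58 for Krt18, -3.23 ± 0.78 for Krt19, -3.19 ± 0.89 for Krt7 and -3.09 ± 0.63 for Prlr. For Cdh1 it was -1.24 ± 0.30 and for Pgr -3.27 ± 0.79, each within 1 SE of the value with all 12 libraries. Esr1 stayed near 0 at -0.22 ± 0.61, and Epcam was at -1.41 ± 0.45. The 6 members past the threshold were then Krt8, Krt18, Krt19, Cdh1, Prlr and Pgr, beside 0.413% of 10887 genes lower, and the groups of Krt8, Krt18, Krt19, Prlr and Pgr did not overlap, beside 0.849% of genes with APOE-KO lower. Cldn3 had no read in the 5 remaining APOE-KO libraries and 56 reads in wildtype, at least 16.0-fold lower when 3 reads are allowed over those libraries together. Leaving out any other single library moved a keratin or Prlr less: the highest such values were -1.73 for Krt8 and -1.18 for Prlr, both without APOE-KO library 6. Library 4 had 3771980 counts, an Rn45s share of 14.98%, 15 Apoe reads and 294 CPM of Itgax, which encodes CD11c, all within the range of the other APOE-KO libraries. Its Apoe level of 4.01 CPM matches its genotype label.

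**Figure D2:**
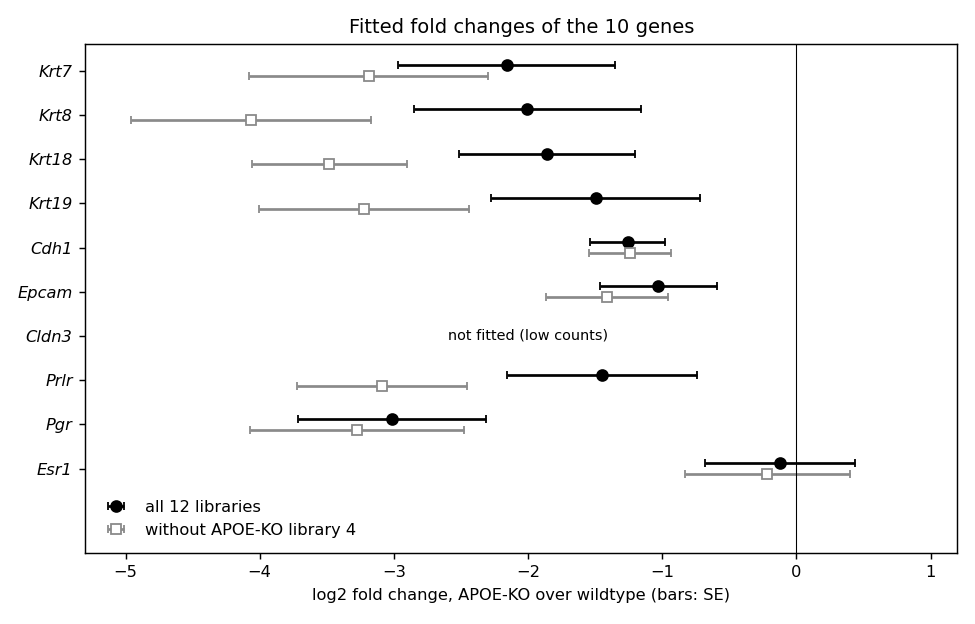
Log2 fold changes, APOE-KO over wildtype, from edgeR's quasi-likelihood fit, with bars of 1 SE, over all 12 libraries (filled circles) and without APOE-KO library 4 (open squares). Krt8 lies at -2.00 with all libraries and at -4.06 without that one, Prlr at -1.45 and -3.09, and Cdh1 at -1.26 and -1.24. Cldn3 was not fitted.

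Across libraries the receptors fell into different relations with the keratins. The mean of the 4 keratins, as log2 CPM with a prior count of 2, correlated with Prlr at Pearson r = 0.91 and Spearman rho = 0.80 over 12 libraries, with Pgr at r = 0.86 and rho = 0.71, and with Esr1 at r = -0.08 and rho = 0.05. The keratin mean ran from -0.90 to 3.59 in APOE-KO libraries and from 2.68 to 3.71 in wildtype libraries, so the pooled values contain the genotype difference. With each genotype's mean taken off, r was 0.83 for Prlr and 0.65 for Pgr. The points share libraries and depth, and the genes were chosen with this pattern known, so no p is given. Leaving out the 2 libraries farthest from the median keratin mean gave r = 0.91 for Prlr and 0.87 for Pgr, and leaving out APOE-KO library 4 gave 0.90 and 0.93. Within the 6 APOE-KO libraries r was 0.88 for Prlr, 0.67 for Pgr and 0.24 for Esr1, and within the 6 wildtype libraries, whose keratin means span less, it was -0.44 for Prlr, 0.31 for Pgr and -0.47 for Esr1. Both sets of values rest on few points. Without APOE-KO libraries 1 and 4, which lie farthest from the APOE-KO median, r over the 4 left was 0.34 for Prlr and -0.43 for Pgr. Without wildtype libraries 3 and 6, farthest from the wildtype median, it was 0.86 for Prlr and 0.94 for Pgr. Esr1 over 12 libraries gave r = 0.33 without wildtype library 3.

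The keratins also tracked each other over the 12 libraries. Each keratin against the mean of the other 3 gave r from 0.87 for Krt7 to 0.95 for Krt8 over 12 libraries, from 0.89 for Krt7 to 0.94 for Krt8 within APOE-KO, and from -0.08 for Krt7 to 0.39 for Krt8 within wildtype. Epcam gave r = 0.85 with the keratin mean over 12 libraries, 0.80 within APOE-KO and 0.61 within wildtype. Cdh1 gave 0.59 over 12 libraries, -0.03 within APOE-KO and 0.35 within wildtype.

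**Figure D3:**
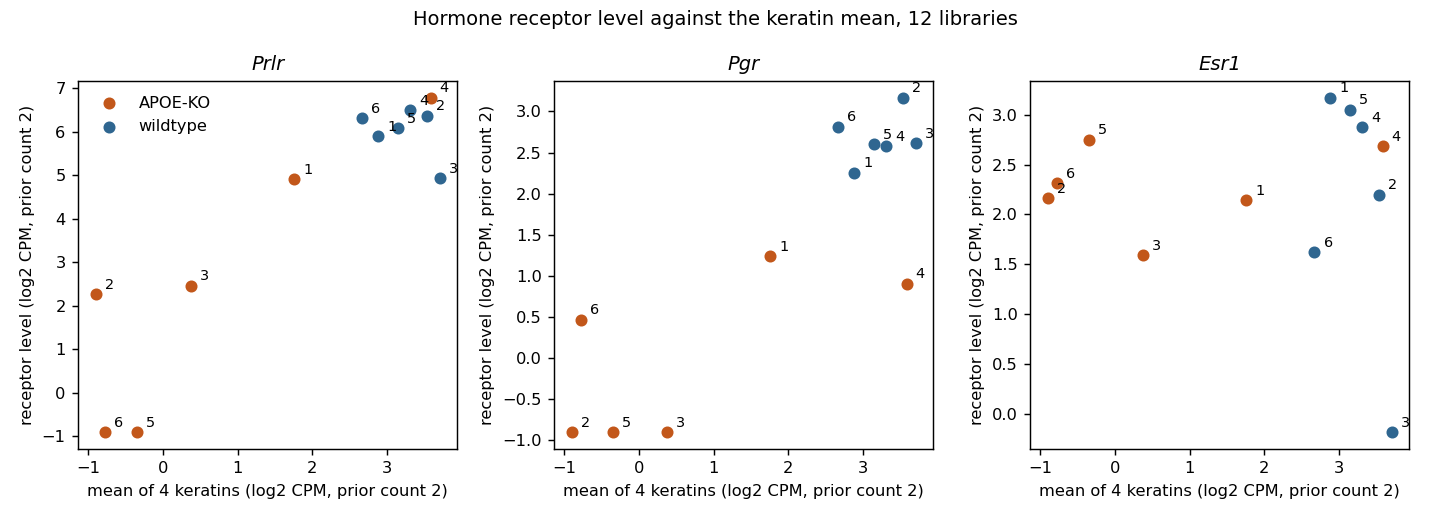
Prlr, Pgr and Esr1 against the mean of Krt7, Krt8, Krt18 and Krt19, both as log2 CPM with a prior count of 2. Each point is 1 library, numbered by replicate, APOE-KO in orange and wildtype in blue. Prlr rises with the keratin mean over the 12 libraries (r = 0.91), but not within the 6 wildtype libraries (r = -0.44). Pgr in APOE-KO library 4 lies below the wildtype libraries of similar keratin level, and Esr1 shows r = -0.08 over the 12.

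Prlr and Pgr were also set against the keratin reads of the same library. Prlr made up 70.5% of the Prlr and keratin reads of APOE-KO library 1 (95% exact binomial interval 63.3 to 77.0) and 65.8% in APOE-KO library 4 (61.9 to 69.5). In APOE-KO library 3, with 29 such reads, it made up 48.3% (29.4 to 67.5). APOE-KO library 2 had 13 Prlr reads beside no keratin read, and APOE-KO libraries 5 and 6 had no Prlr read beside 8 and 1 keratin reads. In wildtype libraries 1 to 6 the share was 65.3%, 62.3%, 35.2%, 62.0%, 57.2% and 73.0%. The lowest, in library 3 (31.0 to 39.7), and the highest, in library 6 (68.3 to 77.4), had intervals that did not overlap. Pgr made up 12.9% of the Pgr and keratin reads in APOE-KO library 1 (5.74 to 23.9) and 2.30% in APOE-KO library 4 (0.752 to 5.29, from 5 Pgr reads beside 212 keratin reads). APOE-KO library 6 had 4 Pgr reads beside 1 keratin read. In wildtype the Pgr share ran from 9.02% in library 4 (5.87 to 13.1) to 18.3% in library 6 (11.9 to 26.1). In APOE-KO library 4 the levels of Pgr and Cdh1 were thus below all 6 wildtype libraries, Prlr was above them all, and the 4 keratins, Epcam and Esr1 were within the wildtype range. These intervals cover counting error only.

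Some other epithelial genes had no read in any APOE-KO library, library 4 included. Esrp1, an epithelial splicing regulator, had no read in any APOE-KO library and 53 reads spread over all 6 wildtype libraries, at least 18.2-fold lower in APOE-KO when 3 reads are allowed over the group. Elf3, an epithelial transcription factor, had 0 reads in APOE-KO and 28 in wildtype, Elf5, a regulator of alveolar mammary cells, 0 in APOE-KO and 19 in wildtype, and the milk protein gene Csn3 0 in APOE-KO and 28 in wildtype, at least 9.59-fold, 6.51-fold and 9.59-fold lower. Single wildtype libraries rich in keratins were also at 0 for Elf3, Elf5 and Csn3, so these bounds describe the groups and not library 4. These genes were picked from the lists for having no APOE-KO read and at least 10 wildtype reads, after their values were seen. Their bounds partly restate that rule. The share of all genes that meet it is not given here, so nothing is read from how many did. Sox10 and Krt15 met the same rule with 52 and 63 wildtype reads, of which wildtype library 3 held 36 and 59, and Dsc2 with 19, of which 1 library held 17. For Krt15 the bound is 21.6-fold, and 1.85-fold without wildtype library 3. For Sox10 it is 17.8-fold, and 7.40-fold without that library. Plin1, a fat cell gene, met it with 14 reads, 13 of them in 1 library.

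The genes outside the 10 whose log2 CPM followed the keratin mean most closely over 12 libraries were Wfdc2, a secreted protein of ductal epithelium (r = 0.95), and Aqp5, a water channel of glands (0.95). Next came Cited1, a transcriptional coregulator of mammary ducts (0.93), and Lmo7 (0.90). Then followed Qrfp (0.90), Gas6 (0.90), Cxcr6 (0.89), Arhgap42 (0.89), Hmgcs1 (0.89) and Tmem56 (0.88). Over 10705 genes the median r was 0.02, and 4 genes exceeded 0.9. Wfdc2 had 34, 0, 14, 88, 0 and 0 reads in APOE-KO libraries 1 to 6 and 19, 48, 273, 138, 81 and 114 reads in wildtype libraries 1 to 6. Aqp5 had 8, 0, 0, 22, 0 and 0 reads in APOE-KO and 20, 17, 93, 42, 25 and 44 reads in wildtype. Cited1 had 24, 0, 16, 80, 0 and 0 reads in APOE-KO and 9, 34, 265, 104, 44 and 51 reads in wildtype. All 3 were at 0 in APOE-KO libraries 2, 5 and 6, as Krt8 was. None of them passed in edgeR's quasi-likelihood test over 12 libraries, with adjusted p of 0.151 for Wfdc2 (log2 fold change -2.15 ± 0.69 SE), 0.0561 for Aqp5 (-2.94 ± 0.78) and 0.306 for Cited1 (-1.82 ± 0.74).

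**Figure D4:**
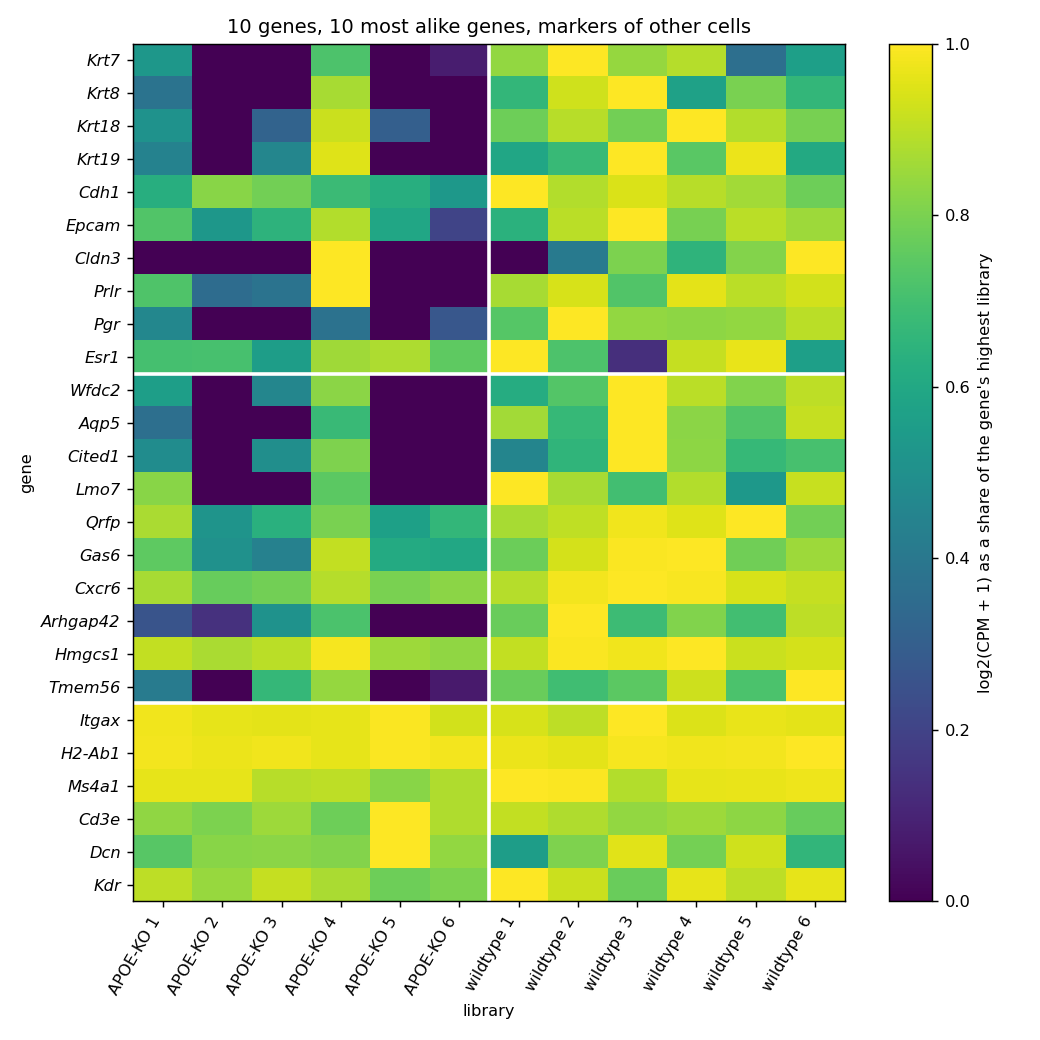
Levels of the 10 genes, of the 10 genes most alike to the keratin mean over 12 libraries, and of 6 markers of other cells (Itgax, H2-Ab1, Ms4a1, Cd3e, Dcn and Kdr), as log2(CPM + 1) divided by each gene's highest library. Columns are APOE-KO libraries 1 to 6, then wildtype libraries 1 to 6. Dark cells mark low values: Krt8 and Aqp5 are at 0 in APOE-KO libraries 2, 3, 5 and 6, and the 6 markers are not at 0 in any library.

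Other genes of the same compartments were taken as lists and read against all genes, whose median log2 fold change was -0.02 and of which 1.49% passed in either direction and 1.08% as higher. Over the 7 lists of related genes 42 genes were tested and 1 passed with edgeR, Socs2. With no adjustment 11 of the 42 had p under 0.05, beside 12.1% of all genes. DESeq2 called 3 of the 42, beside 2.77% of all genes, and limma-voom called 1, beside 1.56%. Of 12 hormone-sensing luminal genes 6 were tested and 0 passed, with a median log2 fold change of -0.77. Among them Foxa1, a factor that opens chromatin for the oestrogen receptor, had 3.03 ± 4.71 CPM in APOE-KO and 7.71 ± 5.90 CPM in wildtype (SD, n = 6 each), and Areg, an oestrogen-induced growth factor of ducts, had 13.4 ± 6.06 CPM in APOE-KO and 22.1 ± 8.98 CPM in wildtype. The gene of that list with the highest level, Trps1, had 147 ± 42.1 CPM in APOE-KO and 114 ± 25.8 CPM in wildtype. Of the genes not tested, Greb1 had 22 reads in APOE-KO and 8 in wildtype, and Tnfsf11 53 in APOE-KO and 43 in wildtype. Wnt4, Msx2, Prom1 and Calca, also not tested, had fewer reads in APOE-KO. Without APOE-KO library 4, Cited1 passed as lower (log2 fold change -3.12, adjusted p = 0.0418 in edgeR's test), and the list's median was -0.90, beside 1.18% of all genes past the threshold in either direction.

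Of 21 other epithelial adhesion and junction genes all had reads, 7 were tested and 0 passed (median -0.17). The highest, plakoglobin (Jup), had 52.6 ± 5.09 CPM in APOE-KO and 54.4 ± 18.7 CPM in wildtype (SD, n = 6 each). Cldn4, a second claudin, had 9 reads in APOE-KO, all in library 4, and 72 in wildtype, and passed as lower once library 4 was left out (adjusted p = 0.0111 in edgeR's test). Of 22 epithelial regulators and membrane proteases 20 had reads, 7 were tested and 0 passed (median -0.43). Their highest member by the mean over all libraries, Ehf, a transcription factor of epithelia, had a positive log2 fold change, with 43.5 ± 10.1 CPM in APOE-KO and 25.95 ± 5.82 CPM in wildtype (adjusted p = 0.0652 in edgeR's test). Of 18 secretory luminal and milk genes 14 had reads, 3 were tested and 0 passed (median 0.25). In that list the milk genes Csn1s2a and Wap had no read in any library, Csn2 had 4 reads in APOE-KO and 9 in wildtype, and Mfge8, which macrophages and dendritic cells also make, had 189 ± 29.5 CPM in APOE-KO and 151 ± 45.3 CPM in wildtype. Wfdc18, a small secreted protein of the gland, had 9 reads in APOE-KO, of which library 4 held 7, and 202 in wildtype. It was too rare for the filter over 12 libraries. It passed as lower at 1 CPM or more in 6 libraries (log2 fold change -4.14, edgeR adjusted p = 0.00658) and without APOE-KO library 4 (-5.79, 0.00102). It also passed without any other single APOE-KO library (edgeR adjusted p 0.0102 to 0.0219) or without wildtype library 2. With 1 library left out the filter asks for enough reads in fewer libraries. Wfdc18 and Cldn4 then entered through wildtype, where they are high, so nothing is read from these calls.

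Of 16 other keratins 10 had reads and none was tested. Krt5 and Krt14, the basal pair, had 1 and 3 reads over the APOE-KO libraries and 11 and 17 over the wildtype libraries. Krt10, Krt13, Krt15, Krt17 and Krt79 also had fewer reads in APOE-KO. Krt4 and Krt80 went the other way, with 4 and 3 reads in APOE-KO and 0 and 2 in wildtype. Krt10 was the highest of the 16 by its mean over all libraries, at 1.17 ± 1.06 CPM in APOE-KO and 2.03 ± 2.24 CPM in wildtype (SD, n = 6 each), and Krt20 was the highest within APOE-KO, at 2.43 ± 2.42 CPM, against 0.38 ± 0.321 CPM in wildtype. All 8 genes listed for prolactin receptor signalling were tested, and 1 passed as higher, Socs2, a cytokine signalling suppressor. Socs2 had 248 ± 55.3 CPM in APOE-KO and 152 ± 24.2 CPM in wildtype (log2 fold change 0.71 ± 0.15 SE, edgeR adjusted p = 0.0133). The list's median was -0.01. Socs2 stood at 191 and 278 CPM in APOE-KO libraries 5 and 6, which had no Prlr read. Whether any gene of this list answered to Prlr in these libraries was not tested. In a fit on library totals alone the adjusted p of Socs2 was 0.0758. Of 16 other steroid receptors and coregulators 11 were tested and 0 passed (median -0.01). The second oestrogen receptor, Esr2, had 1 read in all, and Ncor1, a corepressor and the highest of these, had 371 ± 44.1 CPM in APOE-KO and 460 ± 51.8 CPM in wildtype.

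Markers of other cells that a node can hold were read in the same fit. Over 10 marker lists 30 genes were tested and 0 passed with edgeR, DESeq2 or limma-voom. With no adjustment 5 of the 30 had p under 0.05 in edgeR, beside 12.1% of all genes. Lad1 passed as higher once wildtype library 2 was left out (edgeR adjusted p = 0.0386). Fat cell markers summed to 0.743 to 6.96 CPM in APOE-KO, with library 4 highest, and to 5.05 to 20.6 CPM in wildtype; 5 of 6 APOE-KO libraries lay below the lowest wildtype library. The 8 fat genes were too rare to be tested, Lep had no read, and the highest by the mean over all libraries, Car3, had 0.415 ± 0.652 CPM in APOE-KO and 3.31 ± 2.83 CPM in wildtype (SD, n = 6 each). Car3 had no read in wildtype libraries 3 and 6. Adipoq went the other way, with 20 reads in APOE-KO and 18 in wildtype. Plin1, Plin4, Cfd, Retn and Cidec had fewer reads in APOE-KO, Retn with 19 against 21. Basal and myoepithelial genes, which smooth muscle shares, summed to 23.0 to 73.2 CPM in APOE-KO and 55.4 to 93.1 CPM in wildtype, with 5 of 6 APOE-KO libraries below wildtype. APOE-KO library 6, which had 1 keratin read, was the highest of its group in this sum. Trp63 and Oxtr of this list had 5 and 4 reads in APOE-KO and 0 and 2 in wildtype. Krt17 and Cnn1 had 0 and 1 in APOE-KO and 3 and 18 in wildtype. The highest gene, Mylk, which contracts smooth muscle, had 26.4 ± 6.88 CPM in APOE-KO and 36.6 ± 7.59 CPM in wildtype. Their part in the keratin and Prlr differences was not tested.

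Endothelial markers summed to 105 to 148 CPM in APOE-KO and 121 to 222 CPM in wildtype, and Kdr, a vascular growth factor receptor, had 47.7 ± 11.4 CPM in APOE-KO and 67.0 ± 20.8 CPM in wildtype (SD, n = 6 each). Fibroblast and reticular cell markers summed to 37.7 to 54.5 CPM in APOE-KO and 29.9 to 66.5 CPM in wildtype, with Dcn at 18.0 ± 6.51 CPM in APOE-KO and 15.7 ± 8.02 CPM in wildtype. Of this list 5 genes were tested, 3 of them with a negative log2 fold change, and the median was -0.43. Dcn, at 0.17, was not among those 3. Genes taken here as Langerhans cell markers summed to 70.9 to 104 CPM in APOE-KO and 54.6 to 72.0 CPM in wildtype. They were not shown to be particular to Langerhans cells, and their part in the lower Cdh1 was not tested. Among them Cd207, the lectin langerin, had 25.4 ± 7.92 CPM in APOE-KO and 19.53 ± 6.76 CPM in wildtype, Lad1 had 47.8 ± 9.38 CPM in APOE-KO and 28.8 ± 11.7 CPM in wildtype, and Itgae had 14.3 ± 4.50 CPM in APOE-KO and 15.1 ± 3.72 CPM in wildtype. Keratinocyte markers summed to 0 to 7.93 CPM in APOE-KO and 4.73 to 10.4 CPM in wildtype, with Sbsn at 3.57 ± 2.84 CPM in APOE-KO and 4.87 ± 1.33 CPM in wildtype. Aire, which marks a rare class of node cells, had 2.94 ± 1.55 CPM in APOE-KO and 3.79 ± 2.91 CPM in wildtype. Dendritic, B and T cell markers overlapped between the groups, with sums of 5529 to 6876, 161 to 228 and 248 to 316 CPM in APOE-KO and 4986 to 6798, 155 to 268 and 242 to 321 CPM in wildtype. Ms4a1, the B cell gene for CD20, had 108 ± 29.4 CPM in APOE-KO and 145 ± 27.9 CPM in wildtype. Cd8a, a T cell coreceptor, had 130 ± 19.4 CPM in APOE-KO and 130.02 ± 32.2 CPM in wildtype. Cd3e, also of the T cell list, ran from 12.3 to 26.7 CPM in APOE-KO and from 11.9 to 19.6 CPM in wildtype. How much of the T cell sum came from other cells, dendritic cells among them, was not tested.

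The genes lie on several chromosomes, with Krt7, Krt8, Krt18 and Prlr on chromosome 15. In GENCODE vM21 (GRCm38) Krt7 spans 101411043 to 101430313 and Krt18 102028180 to 102032027 on the plus strand, Krt8 101996698 to 102004482 on the minus strand, and Prlr 10177238 to 10349180 on the plus strand, all on that chromosome. Krt19 is on chromosome 11 from 100140810 to 100148665 (minus strand), Cdh1 on chromosome 8 from 106603351 to 106670246, and Epcam on chromosome 17 from 87635979 to 87651129 (both plus strand). Cldn3 is on chromosome 5 from 134986214 to 134987472, Pgr on chromosome 9 from 8899833 to 8968611, and Esr1 on chromosome 10 from 4611593 to 5005614 (all plus strand). All 10 are protein-coding. Krt7, Krt8 and Cldn3 overlap a gene on the other strand, and Prlr one on its own strand, so their counts are uncertain where reads were not told apart. In the last 500 bases of each member's longest coding transcript no stretch of 50 bases was shared with another gene's transcripts, save 5 of 451 stretches in Krt18, shared with Gm5200.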

How the data were processed

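Per the labels' protocols, libraries were made with a Lexogen kit that reads RNA 3' ends (3' FWD). The authors deposited whole-number read counts per gene symbol, not normalised; the submitters' processing notes name STAR 2.7.8a, featureCounts 1.5.1, R 4.1.0, DESeq2 1.4 and build mm10. The annotation, strand setting and treatment of reads with several matches are each not given in the sources used here.

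Columns were matched to samples by the labels' short descriptions. The counts were fitted in R 4.3.3 with edgeR 4.0.16: filterByExpr (minimum count 10, minimum total 15; 10714 genes kept), TMM factors, glmQLFit and glmQLFTest on genotype over 12 libraries, and Benjamini-Hochberg adjustment over all genes tested, with a threshold of 0.05. Each SE was taken as the absolute log2 fold change over the root of its F statistic. A TMM-scaled CPM is used for levels. Correlations used log2 CPM with a prior count of 2. Alternatives were other size factors and filters, DESeq2 1.42.0, limma-voom (limma 3.58.1), robust dispersion, a replicate block and leaving out each library. No pair of libraries of the same genotype agreed within sampling noise. The test was checked on simulated data.

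The members and the gene lists were chosen with earlier results of these data known. Genes named beyond the members are those past the threshold in a list (at most 4), otherwise the member with the highest mean CPM over all libraries, and the 10 genes most alike to the keratin mean over 12 and over 11 libraries; Gm and Rik genes were left out. Other list members are named after their values were seen: Foxa1, Areg, Cldn4, Cited1, Wfdc18, Krt5, Krt14, Csn1s2a, Wap, Csn2, Krt20, Calca, Esr2, Cd207, Itgae and Lep, and those without an APOE-KO read. So were Cd3e, Greb1, Tnfsf11, Wnt4, Msx2, Prom1, Krt4, Krt13, Krt17, Krt79, Krt80, Trp63, Oxtr, Cnn1, Adipoq, Plin4, Cfd, Retn and Cidec.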

Additional observations from a re-analysis of the deposited data

Results flagged for a closer look

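In 5 of the 20 sets of 6 libraries examined (10 genes in each genotype), 1 library stood apart from the other 5 by more than Dixon's critical share of the group's range, and in all 5 it was APOE-KO library 4, the highest of its group. It had 7.76 CPM of Krt8, 26.2 CPM of Krt18, 18.2 CPM of Krt19, 4.55 CPM of Cldn3 and 109 CPM of Prlr. The next highest APOE-KO libraries had 1.596, 5.24, 3.19, 0 and 29.4 CPM of these genes. By chance about 1 in 20 sets of unselected, normally distributed values would stand apart so. That rate does not apply here, because the genes were chosen with the levels of this library known. Nor need CPM from so few reads be normally distributed. For Krt8, 4 APOE-KO libraries were at 0, and for Cldn3 the other 5 libraries were all at 0, so the 5 sets are a description. No wildtype library stood apart in this way for any of the 10 genes.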

How the results depend on the processing

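The 9 fitted members kept a negative log2 fold change in every fit, except Esr1, which was 0.73 with limma-voom, 0.15 with a replicate block, and 0.072, 0.0095 and 0.057 without wildtype library 1, 4 or 5 (-0.37 to 0.072 when 1 library was left out). Over all genes 160 passed, 116 higher and 44 lower (72.5% higher); 88 (53 higher, 35 lower, 60.2% higher) passed on library totals alone, 297 with DESeq2, 100 with a replicate block, and 99 (without APOE-KO library 3) to 230 (without wildtype library 3) when 1 library was left out. Of the members 2 passed; 5 did with limma-voom, 3 without a filter on low counts, and 1 to 6 when 1 library was left out, 6 being without APOE-KO library 4. With a replicate block Pgr did not pass (adjusted p = 0.0866, edgeR) and Krt18 did. Of the related lists 1 gene passed, and 0 did on library totals alone or with a replicate block (edgeR). In each of those fits 10 of the 42 genes tested had an unadjusted p under 0.05 in edgeR. The share over all genes is not given for them. Without a filter 7 of 101 passed, beside 233 of all 16926 genes. The count was 2 at 1 CPM or more in 6 libraries, 3 with DESeq2, and 1 to 4 when 1 library was left out. The 7 without a filter were Socs2 and Ehf, higher, and Esrp1, Calca, Wfdc18, Krt15 and Sox10, lower; Calca had 124 wildtype reads, 117 of them in wildtype library 3. Apart from what these fits change by construction, the cause was not tested. With deviations from the genotype means, r with the keratin mean was 0.83 for Prlr and 0.65 for Pgr. Whether equal replicate numbers pair libraries of the 2 genotypes was not tested. With 56, 125 and 132 reads over the wildtype libraries, Cldn3, Krt7 and Pgr rest on the fewest wildtype reads of the members other than Esr1.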

Other observations

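Without APOE-KO library 4, the genes most alike to the keratin mean over 11 libraries included Ufl1 (r = 0.95), Cd209b (0.91), Apoe (0.92) and Ube2m (0.90) beside Aqp5, Wfdc2, Qrfp, Cxcr6, Cited1 and Lmo7. Apoe and Cd209b differ strongly between the genotypes, so such an r contains the genotype difference. Ube2m, a conjugating enzyme for the ubiquitin-like protein NEDD8, was lower in APOE-KO, at 16.1 CPM against 30.6 CPM in wildtype (log2 fold change -0.94 ± 0.21 SE, edgeR adjusted p = 0.0177), and its groups did not overlap. The means are over 6 libraries each.

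Krt20, a keratin of intestinal epithelium, ran against most other keratins, as did the rarer Krt4 and Krt80. Krt20 had 54 reads over the APOE-KO libraries, 27 of them in library 5, and 10 over the wildtype libraries. It was too rare to be tested.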
